A study of Mus musculus with 12 samples.

Results

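The 10 genes described are Insr, Irs1, Irs2, Pik3r1, Akt2 and Foxo1, which carry the insulin signal in hepatocytes, and Ppargc1a, Igfbp1, Igfbp2 and Tat, which lie downstream of insulin and the fasting hormones in liver. They were chosen by symbol, with earlier results of these data known. Each symbol matched 1 of the 51912 Ensembl gene identifiers in the count table. All 10 were among the 18098 genes with enough counts to be tested. Their transcripts were counted in the livers of 12 mice by QuantSeq 3' mRNA sequencing, which reads the ends of polyadenylated transcripts, so that a count stands for transcript ends and not for transcript length. There were 4 groups of 3 animals, 1 for each genotype and diet. Wild-type mice were compared with Mlkl-/- mice, which lack the gene for MLKL, the pseudokinase that breaks the plasma membrane in necroptosis. Mice aged 8 to 9 weeks at the start ate chow (the normal diet, ND) or a lipid-rich diet (HFD, 36% of it fat, with lipid supplying 59% of its energy). The sample labels give 25 weeks of diet for every animal, while the series text gives 16 to 25 weeks. Livers came from fed animals picked for mean organ weights. The sources used here do not give the sex, the strain, how Mlkl was inactivated or whether the wild-type animals were littermates. The labels number each animal separately. The p-values rest on the spread between these animals, with the estimate of each gene drawn toward that of other genes.

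Insulin binds its receptor Insr on hepatocytes, and the receptor phosphorylates the docking proteins Irs1 and Irs2. These recruit PI3-kinase through its regulatory subunit Pik3r1, and the kinase Akt2 then phosphorylates FOXO1 and holds it outside the nucleus, which lowers transcription of fasting genes after a meal. Fatty liver and obesity are known for impaired steps of this cascade, and most of the steps are phosphorylations that transcript counts do not read.

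None of the 10 transcripts passed an adjusted p of 0.05 in any of the 7 comparisons of diet and genotype (edgeR's quasi-likelihood test with Benjamini-Hochberg adjustment over all genes tested). The intervals of Insr, Pik3r1 and Akt2 were the narrowest, while the largest fitted differences and the widest spread between animals belonged to Igfbp1, Igfbp2 and Tat. Tat, the aminotransferase that starts tyrosine breakdown, was at 538 ± 249 CPM (counts scaled to the TMM library size, SD, n = 3) in wild-type mice on HFD and at 1134 ± 311 to 1469 ± 206 CPM in the 3 other groups. Igfbp2, a liver-secreted binding protein for insulin-like growth factors, was at 146 ± 55.2 CPM in that group and at 246 ± 16.4 to 335 ± 204 CPM elsewhere. Neither difference passed the adjusted test.

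Library totals ran from 19435391 to 32120426 counts, and the 10 genes had between 130 (Ppargc1a) and 42211 (Tat) counts in a library. Mlkl ran from 3.01 to 7.65 CPM in the 6 wild-type libraries and from 0.43 to 1.40 CPM in the 6 Mlkl-/- libraries, with no overlap, which matches the labels. The sources used here do not say which exons the allele lacks. Of the 8 hepatocyte markers, 7 were in the table and each had counts in every library. Their summed level was 104676 to 111037 CPM in wild-type mice on ND and 58757 to 83179 CPM in wild-type mice on HFD, without overlap. It was 78855 to 109880 CPM in Mlkl-/- mice on ND and 80102 to 107578 CPM in Mlkl-/- mice on HFD. The library Mlkl-/- HFD replicate 2 stood apart, with all 4 skeletal muscle markers detected at a sum of 237 CPM, against 1.15 to 8.15 CPM in the other 11 libraries, where Ckm was at 0 in 7.

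Insr, the insulin receptor (chromosome 8, 3122061 to 3279617, minus strand, GENCODE M21 on mm10), was at 114, 121 and 150 CPM in wild-type mice on ND. On HFD the wild-type animals were at 128, 116 and 133 CPM. Mlkl-/- mice were at 107, 140 and 156 CPM on ND and at 113, 124 and 145 CPM on HFD. All 4 groups overlapped, and the highest library was 1.46-fold above the lowest. The fitted HFD effect was -0.03 log2 units in wild-type mice (95% interval -0.38 to 0.32, adjusted p = 0.946) and -0.08 in Mlkl-/- mice (-0.43 to 0.26, adjusted p = 0.861). Its sign depended on the scaling, since library size without TMM factors moved the median of all genes to 0.19 and the wild-type effect of Insr to 0.17.

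Irs1, the docking protein at the receptor (chromosome 1, 82233101 to 82291416, minus strand), ranged over 11.6, 13.5 and 25.2 CPM in wild-type mice on ND and over 14.3, 15.2 and 21.8 CPM on HFD. In Mlkl-/- mice it was at 15.1, 17.5 and 18.9 CPM on ND and at 22.3, 18.0 and 18.7 CPM on HFD. Wild-type ND replicate 3 was the highest of the 12 libraries and wild-type ND replicate 1 the lowest, so that the spread within 1 group covered the whole range. A protein-coding gene on the opposite strand, Gm9747, overlaps Irs1 near its 3' end, and without a stated strand setting the reads of both genes cannot be told apart.

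Irs2, the docking protein most responsive to fasting (chromosome 8, 10984681 to 11008458, minus strand), was at 12.6, 17.3 and 13.4 CPM in wild-type mice on ND and at 21.8, 18.9 and 11.8 CPM on HFD. Mlkl-/- mice were at 7.76, 17.3 and 17.6 CPM on ND and at 16.9, 21.4 and 18.3 CPM on HFD. The lowest library, Mlkl-/- ND replicate 1, lay 2.81-fold below the highest, wild-type HFD replicate 1. Averaged over genotypes, Irs2 was 0.35 log2 units higher on HFD (SE 0.20, 95% interval -0.08 to 0.78, adjusted p = 0.342), and 0.22 without Mlkl-/- ND replicate 1. For Irs1 the same effect was 0.11 (95% interval -0.27 to 0.49, adjusted p = 0.778).

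**Figure D1:**
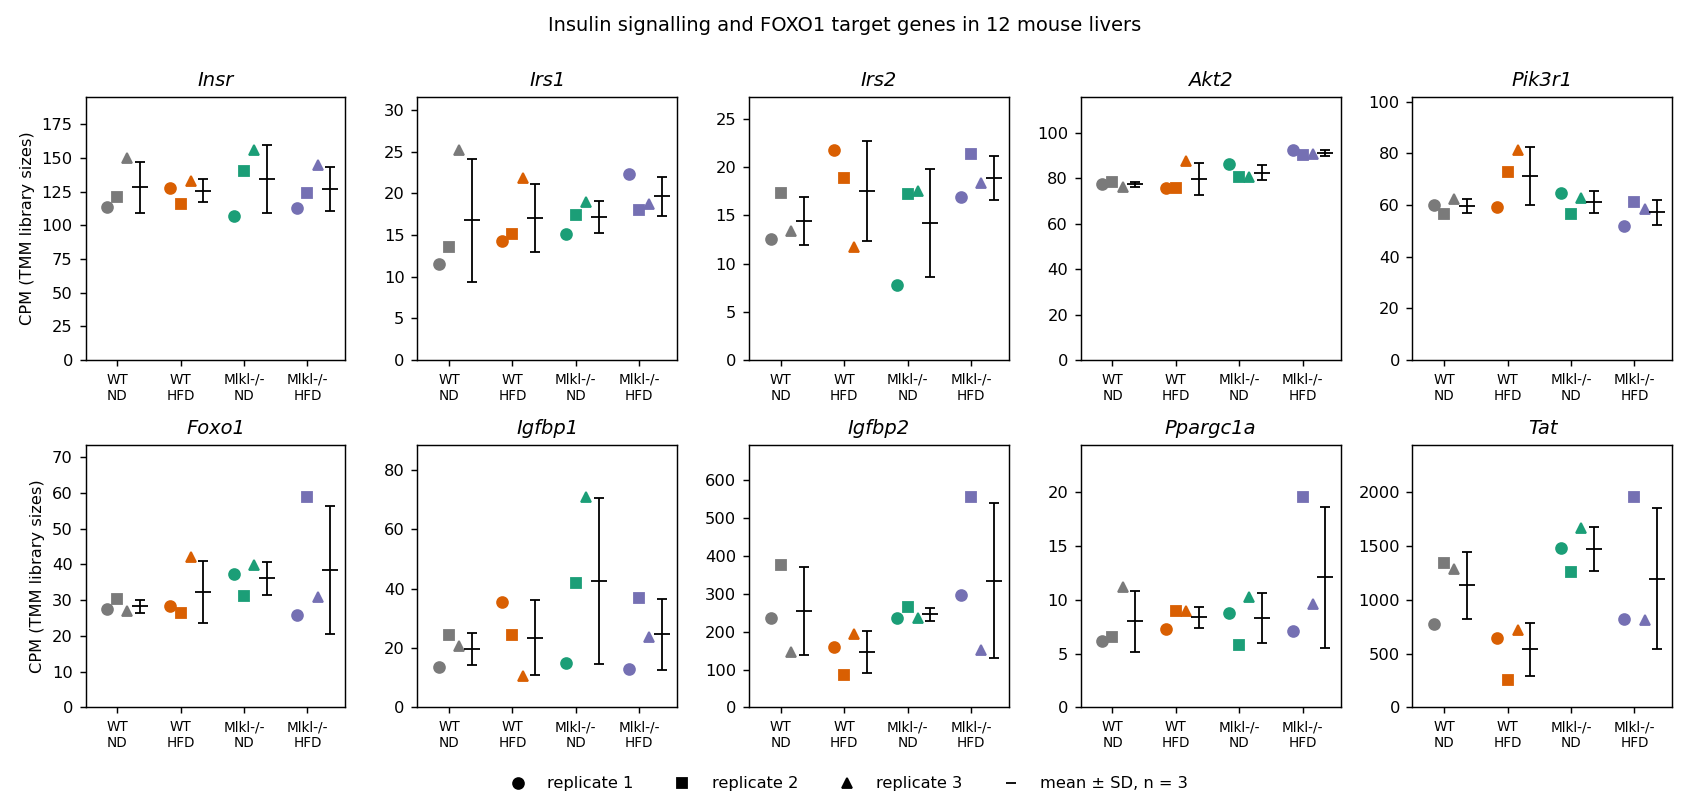
CPM on TMM library sizes (vertical axes, from 0) of the 10 genes in each of the 12 livers, by genotype and diet; symbols give the replicate and bars the mean ± SD of 3 animals. Akt2 is tight in every group, and Tat is lowest in the 3 wild-type HFD livers, at 254 to 716 CPM.

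Pik3r1, the p85-alpha regulatory subunit of PI3-kinase (chromosome 13, 101680563 to 101768217, minus strand), was at 60.0, 56.7 and 62.3 CPM in wild-type mice on ND and at 59.0, 72.8 and 81.4 CPM on HFD. The Mlkl-/- livers were at 64.6, 56.5 and 62.6 CPM on ND and at 51.7, 61.3 and 58.3 CPM on HFD. Wild-type HFD replicates 2 and 3 were the highest of the 12 libraries, while wild-type HFD replicate 1 lay among the rest. On HFD, Mlkl-/- mice were 0.32 log2 units below wild-type mice (SE 0.14, 95% interval -0.61 to -0.03), with an unadjusted p of 0.0347 and an adjusted p of 0.285 by edgeR. Markers of macrophages and sinusoidal endothelium were also lower in Mlkl-/- mice in that comparison. All 8 macrophage markers were detected in every library and summed to 199 to 299 CPM in wild-type mice on HFD and to 101 to 175 CPM in Mlkl-/- mice on HFD. The 8 sinusoidal endothelium markers, also detected in every library, summed to 209 to 321 CPM and to 111 to 135 CPM. Within wild-type mice on HFD the order was the reverse of that of Pik3r1. Replicates 1, 2 and 3 had macrophage sums of 299, 262 and 199 CPM and endothelium sums of 321, 240 and 209 CPM. Stellate cell and fibroblast markers also ran in reverse, at 355, 315 and 164 CPM. Adipocyte markers, at 967, 1222 and 1602 CPM, ran in the same order as Pik3r1. So did skeletal muscle markers, at 2.76, 4.28 and 8.15 CPM, and the other marker lists kept neither order. The part of any cell type in the difference was not tested.

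Akt2, the main Akt kinase of insulin action in liver (chromosome 7, 27591552 to 27640826, plus strand), had a standard deviation within groups of 0.069 log2 units, lower than that of all but 0.265% of the genes tested, whose median was 0.29. It was at 77.7, 78.4 and 76.3 CPM in wild-type mice on ND and at 75.7, 75.9 and 87.7 CPM on HFD. Livers of Mlkl-/- mice were at 86.5, 80.6 and 80.6 CPM on ND and at 92.6, 90.1 and 91.0 CPM on HFD. Within each diet, every Mlkl-/- liver was above every wild-type liver, and within Mlkl-/- mice every HFD liver was above every ND liver. The differences were 0.09 log2 units for genotype on ND (95% interval -0.15 to 0.33, adjusted p = 0.986) and 0.19 on HFD (-0.05 to 0.44, adjusted p = 0.417). The diet difference in Mlkl-/- mice was 0.14 (-0.10 to 0.39, adjusted p = 0.602 by edgeR). Each of these differences had an SE of 0.11, from a spread that the fit draws toward that of other genes.

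Foxo1, the transcription factor that insulin switches off (chromosome 3, 52268336 to 52353221, plus strand), was at 27.4, 30.3 and 27 CPM in wild-type mice on ND and at 28.3, 26.3 and 42.1 CPM on HFD. Mlkl-/- mice were at 37.2, 31.1 and 39.9 CPM on ND, above all 3 wild-type ND livers, and at 25.8, 58.8 and 30.7 CPM on HFD. The genotype difference on ND was 0.35 log2 units (SE 0.26, 95% interval -0.21 to 0.92, adjusted p = 0.967). On HFD it was 0.25 (95% interval -0.31 to 0.82, adjusted p = 0.668), and -0.19 without Mlkl-/- HFD replicate 2, the library with skeletal muscle transcripts and the highest Foxo1 of all 12. The part of those transcripts in the difference was not tested.

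Ppargc1a, the coactivator PGC-1-alpha that works with FOXO1 on fasting genes (chromosome 5, 51454250 to 51567726, minus strand), had few counts, at 130 to 406 per library. It was at 6.15, 6.58 and 11.2 CPM in wild-type mice on ND and at 7.25, 8.95 and 8.97 CPM on HFD. Those of Mlkl-/- mice were at 8.79, 5.76 and 10.3 CPM on ND and at 7.11, 19.5 and 9.60 CPM on HFD. Mlkl-/- HFD replicate 2 was again the highest, and every other library lay between 5.76 and 11.2 CPM. The genotype difference on HFD, 0.52 log2 units (SE 0.35, adjusted p = 0.482), was -0.01 without that library.

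The promoters of the targets show which of the known response letters lie near their starts. They were read from RefSeq windows on GRCm38.p6 that run from 250 bases before to 50 bases after the start, and 9 of the 10 genes matched 14 windows. The letters searched on both strands were the FOXO core GTAAACA and its shorter form GTAAAC, the insulin response sequence CAAAACA, the cAMP response element core TGACGT and its shorter form TGACG (which lies inside the core), and the glucocorticoid element TGTTCT. Of all 32851 windows, 3.65%, 7.89%, 6.28%, 7.51%, 20.8% and 19% hold them in that order. Igfbp1 and Irs2, textbook FOXO1 targets, are printed because each holds CAAAACA, Ppargc1a and Pck1 because each holds TGACGT, and Tat because it had the lowest unadjusted p of the 10 genes. Capitals mark the matches, which read TGTTTTG in Irs2 and ACGTCA in Ppargc1a and Pck1 because they lie on the other strand.
Igfbp1: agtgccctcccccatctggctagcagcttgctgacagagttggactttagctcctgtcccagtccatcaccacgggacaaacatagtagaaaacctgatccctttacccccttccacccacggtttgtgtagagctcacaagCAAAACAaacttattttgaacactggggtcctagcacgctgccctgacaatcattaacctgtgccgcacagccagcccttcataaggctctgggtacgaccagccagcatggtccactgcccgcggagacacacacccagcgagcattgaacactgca
Irs2: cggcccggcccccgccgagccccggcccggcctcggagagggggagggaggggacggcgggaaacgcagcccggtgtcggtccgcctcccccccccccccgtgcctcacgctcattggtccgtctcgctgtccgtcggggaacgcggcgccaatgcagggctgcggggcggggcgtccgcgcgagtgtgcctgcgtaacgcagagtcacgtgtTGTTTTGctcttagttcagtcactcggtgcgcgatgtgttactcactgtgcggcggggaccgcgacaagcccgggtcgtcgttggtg
Ppargc1a: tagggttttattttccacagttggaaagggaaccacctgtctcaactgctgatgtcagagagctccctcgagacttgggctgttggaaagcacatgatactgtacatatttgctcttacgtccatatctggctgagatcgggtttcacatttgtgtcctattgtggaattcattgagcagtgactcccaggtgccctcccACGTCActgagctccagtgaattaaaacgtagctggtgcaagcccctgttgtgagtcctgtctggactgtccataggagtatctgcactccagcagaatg
Pck1: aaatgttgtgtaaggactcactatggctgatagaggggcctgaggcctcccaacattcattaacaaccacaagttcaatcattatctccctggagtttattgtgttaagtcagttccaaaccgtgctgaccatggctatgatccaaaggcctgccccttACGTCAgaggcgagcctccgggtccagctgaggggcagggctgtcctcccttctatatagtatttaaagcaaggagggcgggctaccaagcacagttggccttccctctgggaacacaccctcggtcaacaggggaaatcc
Tat: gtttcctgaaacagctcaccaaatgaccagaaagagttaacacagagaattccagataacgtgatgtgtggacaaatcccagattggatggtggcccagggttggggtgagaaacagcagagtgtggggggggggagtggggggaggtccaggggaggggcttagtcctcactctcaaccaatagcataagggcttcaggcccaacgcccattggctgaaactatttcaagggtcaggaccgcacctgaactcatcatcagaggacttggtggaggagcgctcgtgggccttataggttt
These windows are chr11:7197537-7197836 (plus strand), chr8:11008880-11009179 (minus), chr5:51567676-51567975 (minus), chr2:173152823-173153122 (plus) and chr8:109990186-109990485 (plus). Counting the base before the RefSeq start as -1, the CAAAACA match lies at -108 to -102 in Igfbp1 and at -37 to -31 in Irs2. The RefSeq start of Irs2 lies upstream of the GENCODE start given above, at 11008458, which the window does not hold. Irs1 holds it at 2 places, -111 to -105 and -32 to -26. The TGACGT match lies at -50 to -45 in Ppargc1a and at -91 to -86 in Pck1. None of the 14 windows holds GTAAACA or GTAAAC, and the Tat window holds none of the letters searched. A match is a description of letters and not of a bound site.

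Igfbp1, the binding protein whose transcript is lowered by insulin within hours of a meal (chromosome 11, 7197782 to 7202546, plus strand), varied more within groups than 95% of the genes tested, with a standard deviation of 0.84 log2 units. It was at 13.7, 24.3 and 20.8 CPM in wild-type mice on ND and at 35.6, 24.4 and 10.5 CPM on HFD. For Mlkl-/- mice the values were 15.1, 41.9 and 70.9 CPM on ND and 13.1, 37.1 and 23.8 CPM on HFD. The 4 groups overlapped throughout. The genotype difference on ND was 1.13 log2 units with a 95% interval of -0.29 to 2.54 (adjusted p = 0.941), and 0.54 without Mlkl-/- ND replicate 3, the highest Igfbp1 of all 12. Irs2, whose window holds the same CAAAACA letters, differed by -0.02 in that comparison (95% interval -0.63 to 0.59, adjusted p = 0.998).

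Igfbp2 (chromosome 1, 72824503 to 72852474, plus strand) was at 236, 378 and 148 CPM in wild-type mice on ND and at 159, 85.8 and 194 CPM on HFD. Igfbp2 in Mlkl-/- livers was at 235, 265 and 237 CPM on ND and at 298, 556 and 152 CPM on HFD. The lowest library was wild-type HFD replicate 2 and the highest Mlkl-/- HFD replicate 2, and Mlkl-/- HFD replicate 3 lay below 2 of the 3 wild-type HFD livers. On HFD, Mlkl-/- mice were 1.20 log2 units above wild-type mice (SE 0.48, 95% interval 0.12 to 2.28), with an unadjusted p of 0.0332 and an adjusted p of 0.281 by edgeR. Leaving out single libraries moved this difference between 0.61 and 1.55. The diet difference was -0.80 in wild-type mice (adjusted p = 0.398), or -0.37 without wild-type ND replicate 2, and 0.45 in Mlkl-/- mice (adjusted p = 0.718), the latter -0.11 without Mlkl-/- HFD replicate 2, and their difference, tested as the interaction, was 1.24 (95% interval -0.27 to 2.75, adjusted p = 0.552).

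Tat (chromosome 8, 109990437 to 109999803, plus strand), a gene of the hepatocyte induced by glucocorticoids and glucagon and lowered by insulin, was at 776, 1341 and 1285 CPM in wild-type mice on ND. On HFD the wild-type livers were at 644, 254 and 716 CPM, all below the ND livers. Mlkl-/- mice were at 1483, 1256 and 1667 CPM on ND and at 823, 1951 and 813 CPM on HFD, and every Mlkl-/- HFD liver was above every wild-type HFD liver. The diet difference in wild-type mice was -1.08 log2 units, or 2.11-fold (SE 0.42, 95% interval -2.01 to -0.14), with an unadjusted p of 0.0275 and an adjusted p of 0.180 by edgeR. The genotype difference on HFD was 1.15 (SE 0.42, 95% interval 0.22 to 2.09), with an unadjusted p of 0.0201 and an adjusted p of 0.241. It was 0.60 without Mlkl-/- HFD replicate 2 (adjusted p = 0.611 by edgeR) and 0.81 without wild-type HFD replicate 2 (adjusted p = 0.540). Both comparisons use the same 3 wild-type HFD livers. The diet difference in Mlkl-/- mice was -0.30, and -0.82 without Mlkl-/- HFD replicate 2 (adjusted p of the interaction over all libraries, 0.670).

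Averaged over genotypes, Tat was 0.69 log2 units lower on HFD (an effect of -0.69, SE 0.30, unadjusted p = 0.0416, adjusted p = 0.202 by edgeR). Without Mlkl-/- HFD replicate 2, the liver with the highest Tat and with skeletal muscle transcripts, the effect was -0.94 and passed the threshold (adjusted p = 0.0380). The part of the muscle transcripts was not tested. Wild-type HFD replicate 2 had the lowest Tat and the lowest summed hepatocyte markers, at 58757 CPM. Mlkl-/- HFD replicate 2, with Tat at 1951 CPM, had the highest marker sum on HFD, at 107578 CPM. The remaining HFD livers had 69068 to 83179 CPM of markers with Tat at 644 to 823 CPM. On ND, Tat and the markers did not keep a shared order. Mlkl-/- ND replicate 1 had 78855 CPM of markers with Tat at 1483 CPM. Wild-type ND replicate 1 had 105608 CPM of markers with Tat at 776 CPM. The part of the hepatocyte share in the Tat values was not tested, and in bulk liver fewer hepatocytes and less transcript per hepatocyte cannot be told apart.

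**Figure D2:**
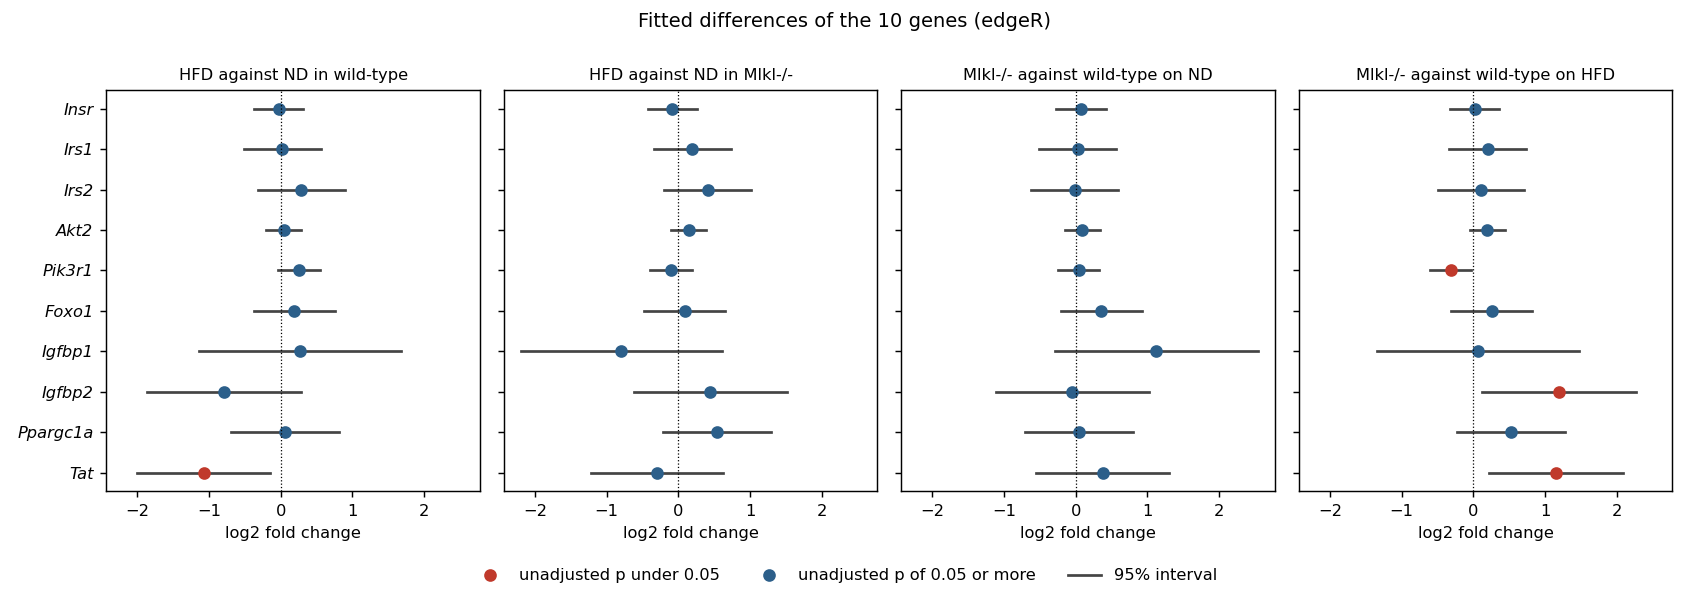
Fitted log2 fold changes (horizontal axes) of the 10 genes in the 4 comparisons of diet and genotype, with 95% intervals as lines; red points have an unadjusted p under 0.05. The intervals of Insr, Akt2 and Pik3r1 are the narrowest and those of Igfbp1 the widest, and no gene passes the adjusted threshold.

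The counts of the 10 genes are set beside the share of all genes tested that met the same rule. For HFD against ND in wild-type mice 0 of 10 passed the adjusted threshold in edgeR, beside 4.23% of all genes, and 1 of 10 had an unadjusted p under 0.05, beside 20.5%. In Mlkl-/- mice 0 of 10 passed, beside 0.359%, and 0 of 10 had a small unadjusted p, beside 13.6%. For genotype on ND the numbers were 0 of 10, beside 0.00553%, and 0 of 10 unadjusted, beside 5.51%. For genotype on HFD they were 0 of 10, beside 0.0276%, and 3 of 10 unadjusted (Tat, Igfbp2 and Pik3r1), beside 15.5%. The interaction gave 0 of 10, beside 0% of all genes, and 0 of 10 unadjusted, beside 10.4%. For diet averaged over genotypes it was 0 of 10, beside 7.19%, and 1 of 10 unadjusted, beside 22%. For genotype averaged over diets it was 0 of 10, beside 0.0166%, and 1 of 10 unadjusted (Tat, 0.76), beside 10.6%. DESeq2 and limma-voom also called 0 of the 10 in each of the 7 comparisons.

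Some of the 10 genes had groups of 3 that did not overlap. By diet it was 1 of 10 in wild-type mice (Tat), beside 29.1% of all genes, and 1 of 10 in Mlkl-/- mice (Akt2), beside 15.5%. By genotype it was 2 of 10 on ND (Akt2 and Foxo1), beside 10.5%, and 2 of 10 on HFD (Akt2 and Tat), beside 21.4%. The median log2 difference of the 10 was 0.05 for diet in wild-type mice and 0.12 in Mlkl-/- mice, where all genes tested had -0.01 and -0.02. It was 0.06 for genotype on ND and 0.20 on HFD, where all genes had 0.00 and 0.01. At library size without TMM factors, the medians of all genes were 0.19 and -0.16 for diet in wild-type mice and genotype on HFD.

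The code that follows the diet in each sample title has no stated meaning. It was 23 or 27 on ND and 25 or 29 on HFD, so that no code occurs on both diets. The lower codes (23 and 25) were set together here, as were the higher (27 and 29), each level with 3 HFD and 3 ND livers. The titles do not give this pairing, and an HFD minus ND difference within a level also compares different codes. The levels are not balanced by genotype: the lower codes hold 2 wild-type and 1 Mlkl-/- liver on ND and 1 wild-type and 2 Mlkl-/- livers on HFD, and the higher codes the reverse. The differences that follow are over both genotypes, and in them the code and the genotype mix cannot be told apart. The lower codes on HFD also include Mlkl-/- HFD replicate 2, the library with skeletal muscle transcripts. That library had the highest Tat, Igfbp2, Foxo1 and Ppargc1a of all livers, and its part in these differences was not tested. Within the lower codes the HFD minus ND difference of Tat was -0.19 log2 CPM, and within the higher codes it was -1.40. For Igfbp1 the values were 0.58 and -1.09, for Igfbp2 0.11 and -0.62, and for Irs2 0.72 and 0.00. Those of Akt2 were 0.09 and 0.10, those of Foxo1 0.16 and 0.01, and those of Ppargc1a 0.48 and 0.06. The sign turned between the levels for Igfbp1, Igfbp2, Insr (0.09 and -0.19), Irs1 (0.41 and -0.14) and Pik3r1 (-0.08 and 0.21). Another division follows 8 loci set together here as small-RNA and rRNA-like, among them the protein-coding gene Lars2. Their summed raw CPM was above 1500, a split also chosen here, in 5 of 6 HFD livers and 1 of 6 ND livers.

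The transcripts whose library profiles were nearest to those of the 3 genes with the smallest adjusted p were found by the root mean square difference of log2 CPM deviations over the 12 libraries, among 9345 genes. For Tat they were Pck1, the gluconeogenic enzyme PEPCK (0.24), Errfi1, a feedback inhibitor of the EGF receptor (0.32), and Slc38a2, an amino acid transporter (0.32), where the deviations of Tat itself had a root mean square of 0.77. Pck1 was at 1634, 2590 and 1938 CPM in wild-type mice on ND and at 1368, 682 and 1343 CPM on HFD. The Pck1 values of Mlkl-/- mice were 2438, 2077 and 2491 CPM on ND and 1314, 3274 and 1375 CPM on HFD. As with Tat, wild-type HFD replicate 2 was the lowest and Mlkl-/- HFD replicate 2 the highest of the 12 livers. The choice of Pck1 by its nearness to Tat over these same livers favours such a match. For Igfbp2 the nearest were Angptl4, an inhibitor of lipoprotein lipase (0.32), Klf15, a fasting transcription factor (0.32), and Tedc2 (0.36). The deviations of Igfbp2 itself had a root mean square of 0.67. For Pik3r1 they were Tulp4 (0.10), Zdhhc5, a palmitoyltransferase (0.10), and Pde8a, a cAMP phosphodiesterase (0.11). The deviations of Pik3r1 itself had a root mean square of only 0.17, so these matches are loose for their size.

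**Figure D3:**
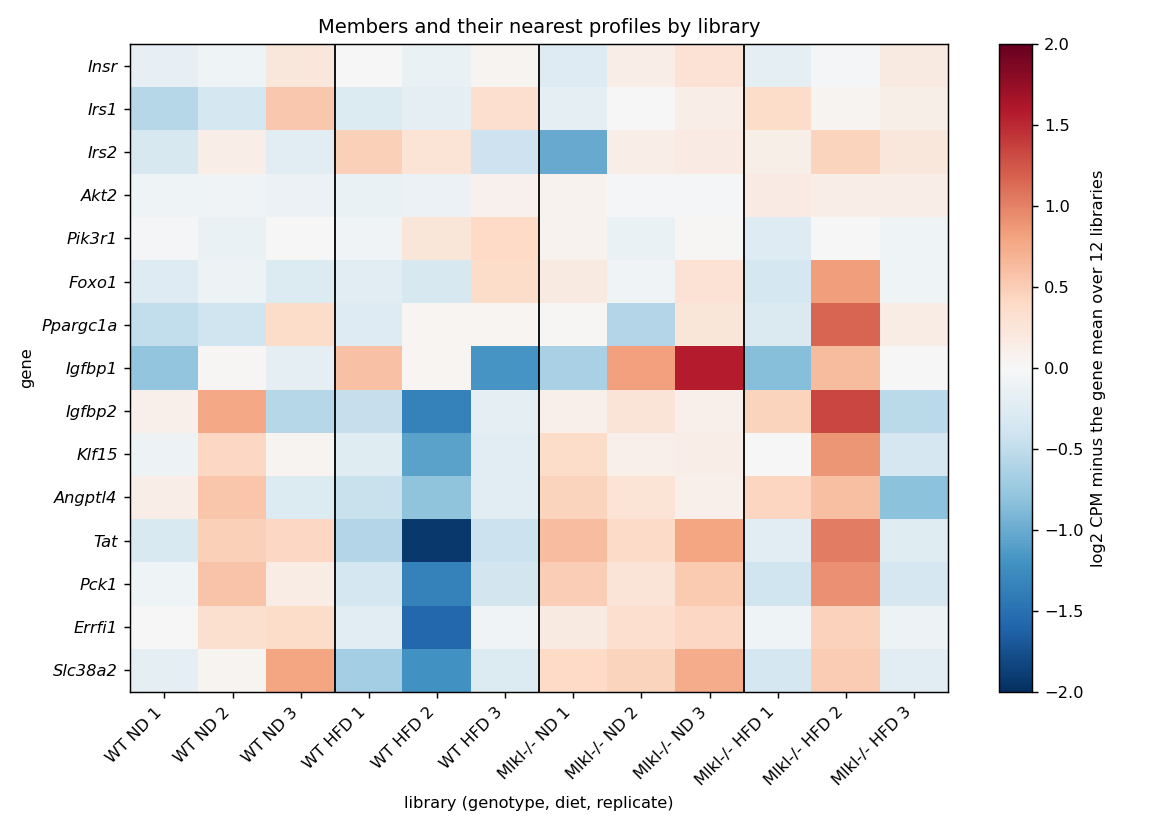
Deviation of log2 CPM from the mean of each gene over the 12 livers (colour, log2 units) for the 10 genes and for the nearest profiles Klf15, Angptl4, Pck1, Errfi1 and Slc38a2, by library and divided by group. Tat, Pck1, Errfi1, Slc38a2 and Klf15 are lowest in wild-type HFD replicate 2, and Tat, Pck1, Errfi1 and Klf15 are highest in Mlkl-/- HFD replicate 2. The nearest profiles were picked on these same livers, which favours shared extremes.

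Other genes of the pathway were read from 9 lists. Among 26 further components of the receptor cascade, 2 rose on HFD averaged over genotypes and 0 fell, beside 3.57% and 3.62% of all genes, and the list median was 0.09 log2 units (22 of 26 positive), where all genes tested had -0.01. They were Pik3cb, the catalytic p110-beta subunit of PI3-kinase, by 0.39 (adjusted p = 0.0352), and Prkcz, an atypical protein kinase C, by 0.61 (adjusted p = 0.0401). Pik3cb was at 12.0, 11.4 and 14.9 CPM in wild-type mice on ND and at 18.5, 19.9 and 21.3 CPM on HFD, and rose in a test within wild-type mice too (0.64, adjusted p = 0.0256). In Mlkl-/- mice it was at 15.3, 13.9 and 13.6 CPM on ND and at 15.1, 14.7 and 17.0 CPM on HFD, which overlap, and the interaction of -0.51 did not pass (adjusted p = 0.435). Both averaged calls were kept in 3 of 12 fits without 1 library, and the Prkcz call was lost without Mlkl-/- HFD replicate 2.

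Among 16 brakes on the pathway, 1 rose on HFD averaged over genotypes and 0 fell, beside 3.57% and 3.62% of all genes. The list median was 0.12 (12 of 16 positive). The gene that rose was Inppl1, the phosphatase SHIP2 that degrades the PI3-kinase product, by 0.41 (SE 0.09, adjusted p = 0.0137 by edgeR). Inppl1 was at 23.3, 27 and 23.5 CPM in wild-type mice on ND and at 30.4, 33.7 and 31.1 CPM on HFD. Inppl1 in Mlkl-/- livers was at 25.8, 24.1 and 24.1 CPM on ND and at 33, 36.6 and 31.2 CPM on HFD. Every HFD liver was above every ND liver, as was so, in either direction, for 2.59% of all genes, and the call was kept in 12 of 12 fits without 1 library. The receptor phosphatase Ptprf differed by 0.08 (adjusted p = 0.777).

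Among 16 further FOXO1-activated genes, 3 rose on HFD averaged over genotypes and 0 fell, beside 3.57% and 3.62% of all genes. The list median was 0.18 (10 of 16 positive), where all genes tested had -0.01. Pdk4, the kinase that blocks pyruvate oxidation, rose by 1.87 (SE 0.40, adjusted p = 0.0231). It was at 4.53, 2.36 and 3.11 CPM in wild-type mice on ND and at 11.9, 27.5 and 10.6 CPM on HFD, without overlap. Pdk4 in Mlkl-/- livers was at 1.87, 5.40 and 3.87 CPM on ND and at 5.10, 17.8 and 7.09 CPM on HFD, with a slight overlap. Pnpla2, the triglyceride lipase ATGL, rose by 0.46 (adjusted p = 0.0375), and Abcb4, the phospholipid pump of the bile canaliculus, by 0.36 (adjusted p = 0.0231) and by 0.53 in wild-type mice (adjusted p = 0.0280). Of the 12 fits without 1 library, the averaged call was kept in 9 for Pdk4, 3 for Pnpla2 and 8 for Abcb4, and the wild-type call of Abcb4 in 7. Pck1 differed by -0.55 (adjusted p = 0.215). Without Mlkl-/- HFD replicate 2, 2 rose (Pdk4 and Abcb4) and 1 fell (Pck1).

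Among 12 genes that insulin induces in liver, 1 rose on HFD averaged over genotypes and 0 fell, beside 3.57% and 3.62% of all genes. The list median was 0.44 (8 of 12 positive). The median was -0.07 in wild-type mice (6 of 12 positive) and 0.55 in Mlkl-/- mice (9 of 12 positive). Pnpla3, a lipid droplet protein, rose by 2.34 (SE 0.46, adjusted p = 0.00938) and by 2.88 in wild-type mice (adjusted p = 0.0236). It was at 0.24 to 0.60 CPM in the 6 ND livers and at 0.72 to 7.74 CPM in the 6 HFD livers, and without the highest of these, wild-type HFD replicate 2, the wild-type difference was 1.62 and was not called. The wild-type call was kept in 8 of 12 fits without 1 library and in 5 of 10 other settings. The averaged call was kept in 12 of 12 and in 6 of 9. Fasn, the fatty acid synthase, differed by 0.87 (adjusted p = 0.0756) and Srebf1, the gene of SREBP-1, by 0.39 (adjusted p = 0.128). Without Mlkl-/- HFD replicate 2, Nr0b2 was called lower as well.

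The other lists held a single call, a fall, where 3.62% of all genes fell. Of 12 glucocorticoid-responsive genes, a group to which Tat also belongs, Cps1, the entry enzyme of the urea cycle, fell by 0.81 averaged over genotypes (SE 0.21, adjusted p = 0.0366), kept in 3 of 12 fits without 1 library, and the list median was -0.24 (3 of 12 positive). Tdo2, the tryptophan dioxygenase, differed by -0.35 (adjusted p = 0.176). Of 9 tested genes of the IGF axis 0 were called by edgeR (1 at an unadjusted p under 0.05), with Igf1 at -0.38 (adjusted p = 0.0971) and Igfbp4 at 0.14 (adjusted p = 0.596). The 11 tested genes of the cAMP and fasting response gave 0 calls (2 unadjusted), the 10 of the PGC-1 family 0 (1 unadjusted) and the 8 of aromatic amino acid breakdown 0 (1 unadjusted), beside 22% of all genes with an unadjusted p under 0.05. Without Mlkl-/- HFD replicate 2, Nr4a2 of the cAMP list (only 0.039 to 1.15 CPM) was called higher and Aadat of aromatic amino acid breakdown lower. Among their most abundant genes were Creb3l3 (-0.09, adjusted p = 0.640) and the glucagon receptor Gcgr (0.05, adjusted p = 0.809), then the hepatocyte factor Hnf4a (-0.30, adjusted p = 0.134) and Lpin1 (-0.70, adjusted p = 0.557), and then Hpd (-0.03, adjusted p = 0.952), an enzyme of tyrosine breakdown. Of all 9 lists, 0 genes were called in Mlkl-/- mice alone, in either genotype comparison, in their average or in the interaction. Each of the 11 list calls was lost when the level of the 8 small-RNA and rRNA-like loci, which largely follows diet, entered the fit as a term, where the calls over all genes for the average went from 1302 to 122. In that fit the averaged differences were 2.00 for Pdk4, 1.68 for Pnpla3, 0.39 for Abcb4, 0.34 for Inppl1, 0.34 for Pnpla2, 0.28 for Pik3cb, 0.27 for Prkcz and -0.25 for Cps1. The wild-type differences in it were 2.18 for Pnpla3, 0.56 for Abcb4 and 0.53 for Pik3cb.

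**Figure D4:**
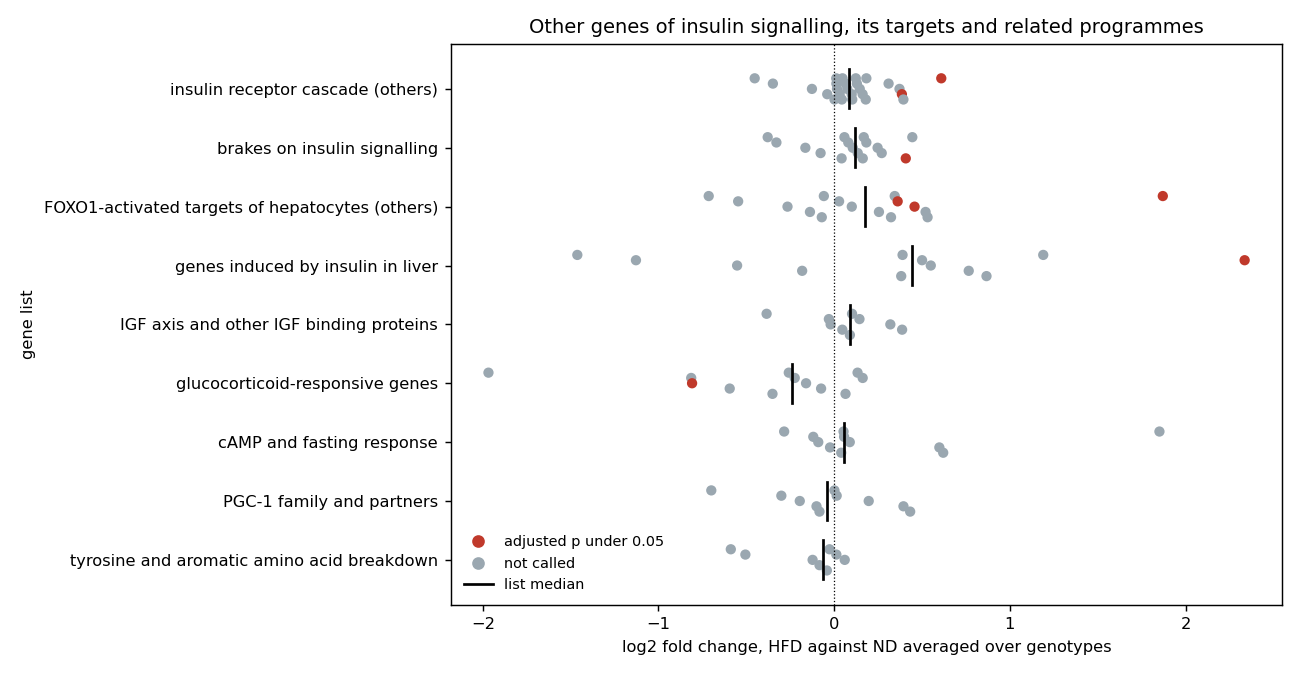
Log2 fold change on HFD averaged over genotypes (horizontal axis) of each tested gene of the 9 lists; red points have an adjusted p under 0.05 and black bars are list medians. Pnpla3 (2.34) and Pdk4 (1.87) lie farthest to the right among the called genes, and Cps1 (-0.81) is the only called gene on the left.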

How the data were processed

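Liver RNA of 12 mice was sequenced from the 3' ends of transcripts with Lexogen's QuantSeq kit on an Illumina NextSeq 500, per the labels' protocols. The authors deposited raw counts per Ensembl gene, whole numbers with no normalization. Per the submitters' processing notes, reads were handled with cutadapt 1.9, HISAT2 and featureCounts on mm10, and limma is named too. Other versions, the strand rule and the treatment of multiply mapped reads are not stated in those notes.

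The genotype and diet in the labels set the groups. With edgeR 4.0.16 in R 4.3.3, genes passed filterByExpr (10 counts, 15 in total), libraries were scaled by TMM (factors 0.922 to 1.16), and all 12 libraries entered 1 fit of the 4 group means (8 residual degrees of freedom) with robust quasi-likelihood dispersions. The Benjamini-Hochberg adjustment ran over 18098 genes, and called means an adjusted p under 0.05. Differences are log2 with their SE, and SD is over 3 livers. Symbols and positions come from GENCODE M21, and promoter windows from RefSeq. The fit was tested on simulated counts.

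The members, lists and markers were chosen with earlier results of these data known. The text names the 10 members, Mlkl, up to 4 called genes per list, ranked by the size of their change (the 2 of highest mean CPM if a list had under 2 calls), and the 3 nearest profiles of at least 5 CPM for each of the 3 members with the smallest adjusted p. A few genes named by it are not reported here. Genes outside this rule (Nr0b2, Nr4a2, Aadat, Pck1 in the lists, and those of the closing observations) were chosen after their values were seen. The alternatives were RLE size factors, library size only, 2 other count filters, DESeq2 1.42.0, limma-voom (limma 3.58.1), dispersions without robust estimation, only the groups compared, the title code or the level of 8 small-RNA and rRNA-like loci as a term, and each library left out. The fits for list genes under these alternatives, and the list counts without Mlkl-/- HFD replicate 2, were chosen after seeing the data.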

Additional observations from a re-analysis of the deposited data

How the results depend on the processing

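Each of the 70 differences of the 10 genes was recomputed in up to 22 settings, 10 of them with another scaling, filter, tool or term and 12 without 1 library, which gave 1510 values. Of these, 1493 kept their side of the threshold and their direction, or changed sign by less than 1 SE, while 16 turned by 1 SE or more or with a call. The number of the 10 genes called was 0 in every setting and comparison but 1: for HFD against ND averaged over genotypes it ran from 0 to 1 over the fits without 1 library, with Tat called without Mlkl-/- HFD replicate 2. At library size only, Insr turned to 0.17 for diet in wild-type mice, to 0.083 for diet averaged over genotypes and to -0.15 for genotype on HFD, in step with the median of all genes (0.19, 0.13 and -0.16). With the level of the 8 loci as a term, Insr turned to 0.14, 0.10 and 0.12 for diet in wild-type mice, in Mlkl-/- mice and on average, Igfbp1 to 0.39 in Mlkl-/- mice and 0.78 on average, and Pik3r1 to -0.097 on average, and the cause was not tested. Over the fits without 1 library, Foxo1 ran from -0.33 to 0.31 for diet in Mlkl-/- mice, from -0.061 to 0.25 for diet on average and from -0.19 to 0.49 for genotype on HFD. Igfbp2 ran from -0.11 to 0.80 for diet in Mlkl-/- mice, and Ppargc1a from -0.0096 to 0.79 for genotype on HFD and from -0.055 to 0.75 for the interaction, each lowest without Mlkl-/- HFD replicate 2. Irs1 ran from -0.24, without wild-type ND replicate 3, to 0.39 for the interaction. No paired analysis was possible because the labels give no replicate numbers that the groups share. Fits of only the groups compared were not run for the interaction and the averages, which need all 4 groups.

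With 3 livers a group, the 95% interval of a difference spanned a factor of 1.18 on either side for Akt2 and of 2.65 to 2.67 for Igfbp1 in the 4 simple comparisons, so that differences of Igfbp1 smaller than this could not be told from none. Counting error is small beside this, at 130 or more counts per gene and library. Without molecular identifiers, counts cover sampling only.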

Other observations

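The list of genes that insulin induces in liver, which had no adjusted call for genotype, held 5 of 12 genes with an unadjusted p under 0.05 by edgeR in Mlkl-/- against wild-type mice on ND, beside 5.51% of all genes tested, with a list median of -0.53 and 2 of 12 positive. These genes were chosen after their values were seen. G0s2, an inhibitor of the lipase ATGL, was at 235, 149 and 71.0 CPM in wild-type mice on ND and at 51.0, 48.3 and 30.3 CPM in Mlkl-/- mice on ND (-1.81, SE 0.61, adjusted p = 0.760). Also with a small unadjusted p were Id1 (-1.83), Mlxipl, the gene of the glucose sensor ChREBP (-0.58), and Srebf1 (-0.53). In the same comparison, the 10 genes of the cascade and its targets had 0 with an unadjusted p under 0.05.

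Of 11 tested genes of the cAMP and fasting response, 4 had an unadjusted p under 0.05 in that comparison, with a list median of -0.27, and were also chosen after their values were seen. Nr4a1, an orphan nuclear receptor induced by cAMP, was at 1.20, 2.85 and 1.83 CPM in wild-type mice on ND and at 0.54, 0.84 and 0.67 CPM in Mlkl-/- mice on ND (-1.50, adjusted p = 0.528). Fgf21, a fasting hormone of liver, was at 26.8, 7.22 and 10.9 CPM and at 0.98, 7.31 and 3.67 CPM (-1.90, adjusted p = 0.765). The 2 other genes were Pde4d (-0.996) and Nr4a2, which was at 0.049, 0.089 and 0.039 CPM in Mlkl-/- mice on ND, too low for a fold to be read.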
